A study of Caenorhabditis elegans with 6 samples.

Results

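The superoxide dismutases, catalases and peroxiredoxins of the nematode Caenorhabditis elegans were followed on arrays that set worms treated with chlorpyrifos (CPF) against control worms. The genes were a named set from these families, and the sod family is not covered in full. They were sod-1, sod-2, sod-4 and sod-5, ctl-1, ctl-2 and ctl-3, and prdx-2, prdx-3 and prdx-6. These 10 genes, of 18865 genes on the array, had 13 spots out of 22490 that carried a worm probe. Of the 13 spots, 4 were for sod genes, 6 for ctl genes and 3 for prdx genes. By the reference annotation, 6 of the 10 genes lie on chromosome II. There ctl-2, ctl-1 and ctl-3 follow each other with no other protein-coding gene between them.

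The first of these enzyme families makes what the others remove. Superoxide, which leaks mostly from the mitochondrial electron transport chain, is turned into hydrogen peroxide by superoxide dismutases. Catalases split hydrogen peroxide into water and oxygen, and peroxiredoxins reduce it with a cysteine of their own that thioredoxin then restores. CPF is an organophosphorus insecticide whose oxidised form blocks acetylcholinesterase, and oxidative stress is among the effects described for such compounds in animals.

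All worms were of the wild type strain N2, raised for 72 hours at 16 °C from synchronised eggs, with Escherichia coli OP50 as their food, and were frozen in stage L3 or L4. The agar of the treated worms held CPF in acetone, and that of the control worms held acetone alone. The dose of CPF is 0.5 mg/ml in the labels but 0.5 mg per litre in the methods of the study, and the deposited files alone do not settle the unit. The methods also place the dose below published effect concentrations for reproduction and growth. Those are given in mg per litre, and only the dose per litre lies below them. Each of the 6 arrays carried 1 CPF sample, pooled from 4 dishes, beside 1 control sample. On 3 arrays CPF was labelled with Cy5 and on 3 with Cy3, and arrays are named by the dye of CPF. The 6 replicates are described as biological. The sources used here do not say whether the 6 control samples were separate extracts.

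No change in transcript level was detected for any of the 10 genes. In the limma fit over all probes 0 of the 13 spots passed an adjusted p of 0.05, against 0.934% of all probes (210 probes, 58 of them higher). At an unadjusted p below 0.05 the count was also 0 of 13, against 9.66% of all probes, and the rank product called 0 of 13, against 2.58% of all probes. The smallest adjusted p of a member was 0.66. The median log2 fold change of the 13 spots was -0.04, where that of all probes was 0.00315. Without CPF Cy3 replicate 1 the median was 0.04. A p that misses the threshold does not show that a level stayed the same. The intervals below give the range of change compatible with the ratios of each spot and are not adjusted for the number of probes. They do not give the size of change that the adjusted test could miss. Since whole worms were extracted, fewer cells of a type and less RNA per cell cannot be told apart.

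Not every spot could be measured. A spot counted as above background where its mean brightness exceeded the local background by 2 SD. On that measure 7 of the 13 spots (sod-1, sod-2, ctl-1, prdx-2, prdx-3, spot 22352 of ctl-2 and spot 10631 of ctl-3) were above background in all 12 channels. The spots of sod-4, prdx-6 and spot 8369 of ctl-2 missed it on 1 or 2 arrays. The spot of sod-5 was above background nowhere, and spots 8695 and 19280 of ctl-3 only in 1 control channel each. For these 3 the text thus states no fold change of their own. They still enter counts and medians over all member spots or whole families, and they are drawn in the figures. No member spot was saturated. Over the other 10 spots, which stand for 9 genes, every 95% interval of the fold change lay between 0.539 and 1.54. None of these intervals reached a doubling or a halving. The fitted log2 fold changes of the 10 spots were positive for 4 and negative for 6, and none was larger than 0.17 in size. The intervals hold for this fit only. Spot 10631 of ctl-3 had -0.16 ± 0.40 (SE) with plain background subtraction and -0.40 ± 0.32 (SE) without CPF Cy3 replicate 2. A halving of ctl-3 was thus not excluded under every alternative.

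**Figure D1:**
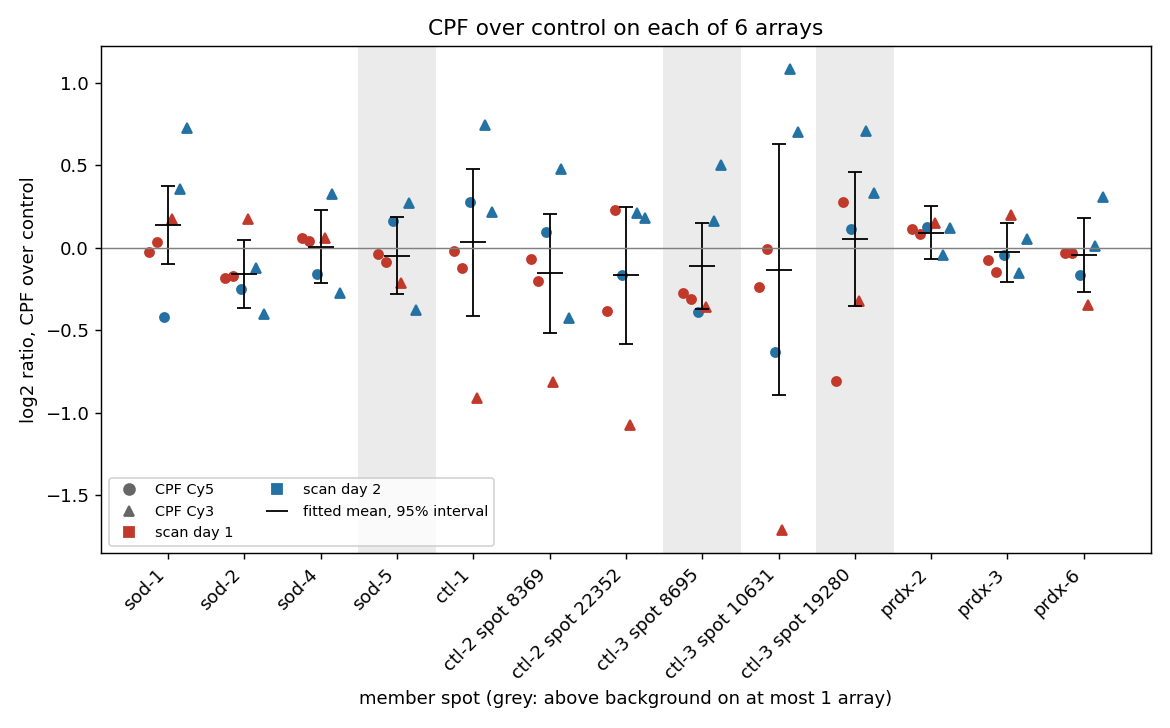
The log2 ratio of CPF over control (vertical axis) is drawn for each of the 13 member spots on each of the 6 arrays, with circles for CPF in Cy5, triangles for CPF in Cy3, red for the first and blue for the second scan day. Black bars give the fitted mean with its 95% interval, all of which include 0; the 6 ratios of prdx-2 lie closest together, and those of spot 10631 of ctl-3 span from -1.71 to 1.08.

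Among the superoxide dismutases the values of both abundant enzymes differed in sign, and neither passed the test. sod-1 encodes the main cytosolic copper/zinc enzyme. Its level (log2 normalised intensity) ran from 11.48 over a median of 12.04 to 12.98 in the CPF samples and from 11.31 over a median of 12 to 12.63 in the controls, so the ranges overlapped almost wholly. With CPF in Cy5 the log2 ratios of replicates 1 to 3 were -0.03, 0.04 and -0.42, and with CPF in Cy3 they were 0.17, 0.35 and 0.72. All 3 arrays with CPF in Cy3 thus lay above the 3 with CPF in Cy5, and the fitted dye effect of this probe was -0.28 (adjusted p = 0.86). With the dye effect taken out, the log2 fold change was 0.14 ± 0.10 (SE, n = 6 arrays, adjusted p = 0.766), with a 95% interval of -0.10 to 0.38.

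sod-2 encodes the manganese enzyme of the mitochondrial matrix. Its level ran from 10.51 over 11.48 to 11.80 with CPF and from 10.64 over 11.70 to 12.20 in the controls. The log2 ratio was below 0 on 5 of 6 arrays, at -0.19, -0.17 and -0.25 with CPF in Cy5 and at 0.17, -0.13 and -0.40 with CPF in Cy3. CPF Cy3 replicate 1 was the only array on which sod-2 was higher with CPF. The log2 fold change was -0.16 ± 0.09 (SE, n = 6, adjusted p = 0.66), the smallest adjusted p of the 13 spots, and the interval of the fold change was 0.775 to 1.03. Leaving out 1 array at a time moved it from -0.23 without CPF Cy3 replicate 1 (adjusted p = 0.25) to -0.09 without CPF Cy3 replicate 3 (adjusted p = 0.796). On the 3 arrays of the first scan day alone it was -0.0028.

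sod-4 encodes the extracellular or membrane-bound copper/zinc enzyme. It was measured on 5 of 6 arrays, with a median level of 8.32 with CPF and 8.28 in the controls. Its log2 fold change was 0.01 ± 0.09 (SE, n = 6, adjusted p = 0.995). CPF Cy3 replicate 2, where both channels were below background, held its highest ratio, 0.33, and without that spot the value was -0.07. sod-5 encodes a second cytosolic copper/zinc enzyme, known in C. elegans for its rise in dauer larvae. It lay between 6.20 and 6.68 in the CPF samples and between 6.24 and 6.71 in the controls, all 12 values not well above background. No level of sod-5 could thus be given for either condition.

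The catalases had the largest spread between arrays, and the sign of their median fold change hung on 1 array. Over the 4 catalase spots above background the median log2 fold change was -0.14, and without CPF Cy3 replicate 1 it was 0.15. ctl-1, ctl-2 and ctl-3 encode close copies of one another, ctl-1 the cytosolic and ctl-2 the peroxisomal enzyme. Probe sequences were not used here, so signal shared between the copies cannot be told apart and each value is uncertain as a value of its own gene. ctl-1 ran from 10.51 over 11.18 to 12.24 with CPF and from 10.93 over 11.16 to 11.49 in the controls. Its CPF samples thus spread on both sides of a narrow control range. The ratios were -0.02, -0.12 and 0.27 with CPF in Cy5 and -0.91, 0.75 and 0.22 with CPF in Cy3, and the log2 fold change was 0.03 ± 0.19 (SE, n = 6, adjusted p = 0.984). Without CPF Cy3 replicate 1 it was 0.26 (adjusted p = 0.314).

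ctl-2 had 2 spots, named after the transcripts Y54G11A.5a (spot 22352) and Y54G11A.5b (spot 8369), and both gave nearly the same fold change. Spot 22352 ran from 9.97 over 10.91 to 12.19 with CPF and from 10.45 over 11.23 to 11.97 in the controls. Its ratios were -0.39, 0.23 and -0.17 with CPF in Cy5 and -1.08, 0.21 and 0.18 with CPF in Cy3. The array with the lowest ratio was again CPF Cy3 replicate 1. The log2 fold change was -0.17 ± 0.18 (SE, n = 6, adjusted p = 0.862) at spot 22352 and -0.16 ± 0.16 (adjusted p = 0.851) at spot 8369. Without CPF Cy3 replicate 1 these values were 0.04 and -0.02. On CPF Cy3 replicate 3 spot 8369 was dark in both channels, at 6.37 and 6.79 against 10.68 to 12.06 elsewhere, and without that array's spot its log2 fold change was -0.11 ± 0.19 (SE, 5 arrays, adjusted p = 0.926).

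ctl-3, a catalase described in neurons and pharynx muscle, had 3 spots with 1 sequence name, Y54G11A.13. Only spot 10631 was above background throughout. Its level ran from 8.08 over 9.75 to 11.28 with CPF and from 9.11 over 9.80 to 10.20 in the controls. The ratios were -0.24, -0.01 and -0.63 with CPF in Cy5 and -1.71, 1.08 and 0.70 with CPF in Cy3. This was the widest range of any member, and the log2 fold change was -0.13 ± 0.33 (SE, n = 6, adjusted p = 0.953) with a fold interval of 0.539 to 1.54. Without CPF Cy3 replicate 1 it was 0.30 (adjusted p = 0.276), while omitting CPF Cy3 replicate 2 gave -0.40 (adjusted p = 0.783). Spots 8695 and 19280 lay between 5.94 and 7.94 in all channels, not well above background in 11 of 12 each.

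The ratios of the catalase spots shared a sign on 3 of the 6 arrays. On CPF Cy3 replicate 1 all 6 lay below 0, from -1.71 to -0.32, and on CPF Cy3 replicate 2 all 6 lay above 0, from 0.16 to 1.08. On CPF Cy5 replicate 1 all 6 were again below 0, with a median of -0.26. They split on the other arrays, with 2 above and 4 below 0 on CPF Cy5 replicate 2, 3 and 3 on CPF Cy5 replicate 3, and 5 and 1 on CPF Cy3 replicate 3. Since the spots may share signal, they are not 6 independent measurements. Spots 8695 and 19280 of ctl-3 are counted here although they were dim, and the values of -0.32 and 0.16 came from them.

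The arrays were scanned on 2 days, according to the file headers, and both days held arrays of both dye orders. CPF Cy5 replicates 1 and 2 and CPF Cy3 replicate 1 came on the first, and CPF Cy5 replicate 3 and CPF Cy3 replicates 2 and 3 on the second. With the dye effect fitted within each day, the 6 catalase spots were all negative on the first, with a median log2 fold change of -0.48, and 5 of 6 were positive on the second, with a median of 0.10. In these fits 1 dye order has a single array, which adds nothing to the error and is assumed to vary like the others. Within the first day that array is CPF Cy3 replicate 1, the one with the low catalase ratios, so the p-values there leave out its own error. With that limit, 1 of 13 member spots passed on the first day, spot 10631 of ctl-3 at -0.92 (adjusted p = 0.0166), against 5.34% of all probes, and ctl-1 stood at -0.49 (adjusted p = 0.0531). Within the second day 0 of 13 passed, against 0.605% of all probes, with ctl-1 at 0.38 (adjusted p = 0.633) and spot 10631 at 0.13 (adjusted p = 0.977). The difference between the days was tested itself, and 0% of all probes and 0 of the 13 spots passed. At an unadjusted p below 0.05 that difference held for 1828 probes and for 1 member spot, that of ctl-1, where the second day lay 0.87 ± 0.28 (SE) above the first (adjusted p = 0.599). The median of the sod spots was 0.03 on the first and -0.01 on the second day, and that of the prdx spots was 0.04 and -0.00089. These medians count the dim spots of sod-5 and ctl-3. Without the dim spots the medians of the 2 days were 0.05 and -0.07 for sod and -0.53 and 0.10 for the catalases.

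**Figure D2:**
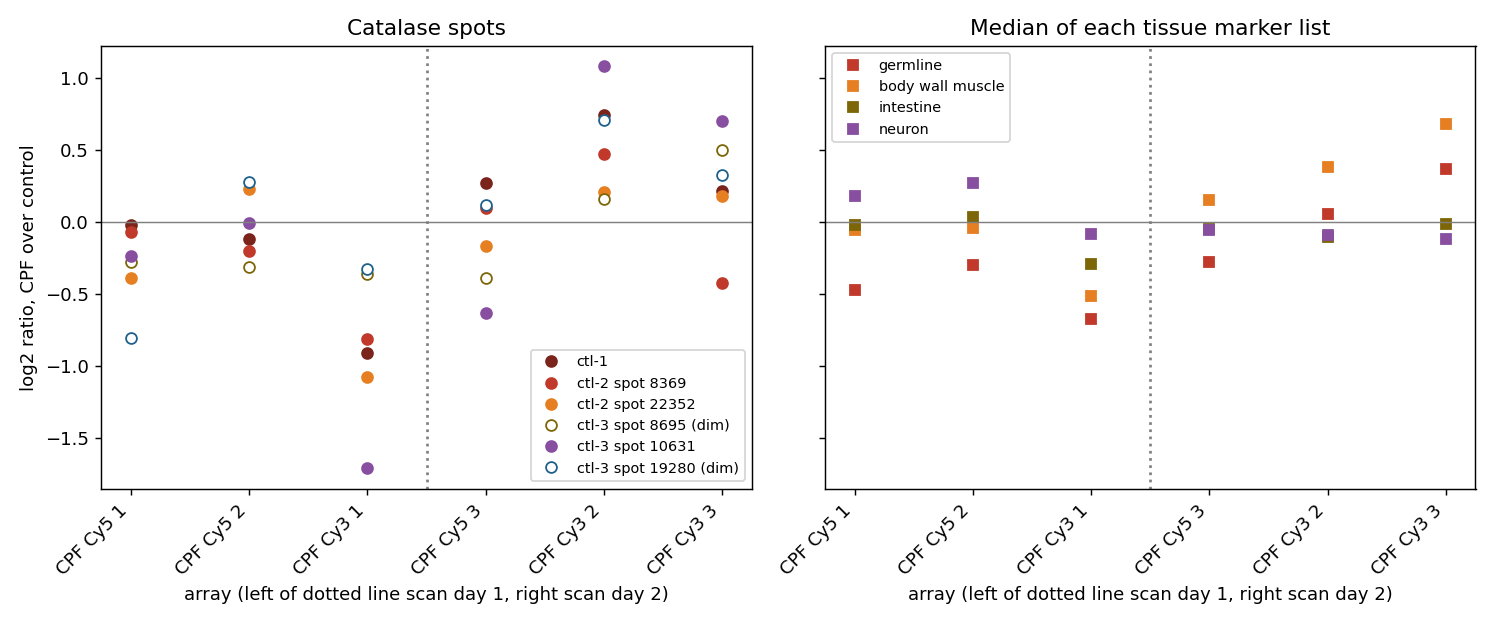
Log2 ratios of CPF over control (vertical axis, shared) are drawn by array, for the 6 catalase spots on the left (open circles: the dim spots of ctl-3) and as the median of 4 tissue marker lists on the right, with arrays of the first scan day before the dotted line. The lowest catalase ratio, -1.71, is on CPF Cy3 replicate 1 and the highest, 1.08, on CPF Cy3 replicate 2, while the medians of the muscle and germline lists are lowest on CPF Cy3 replicate 1 and highest on CPF Cy3 replicate 3.

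Lists of tissue markers also differed between arrays. The median ratio of 8 body wall muscle genes was -0.51 on CPF Cy3 replicate 1 and 0.38 and 0.68 on CPF Cy3 replicates 2 and 3, and that of 12 germline genes was -0.67, 0.06 and 0.37 on the same arrays. The median of 9 intestinal genes was also lowest on CPF Cy3 replicate 1, at -0.29. That of 7 epidermal genes was highest there, at 0.27, and that of 8 neuronal genes was -0.08. On CPF Cy5 replicate 1, where the catalase spots were also below 0, the medians were -0.05 for muscle, -0.47 for germline and -0.02 for intestine. These lists thus did not all follow the catalase spots, and their part in the catalase ratios was not tested.

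Among the peroxiredoxins prdx-2 and prdx-3 had smaller spreads between arrays than any other member. prdx-2 encodes the typical cytosolic enzyme with a pair of catalytic cysteines. Its level ran from 11.47 over 13.88 to 14.20 with CPF and from 11.51 over 13.75 to 14.08 in the controls. The low value came from 1 array, CPF Cy3 replicate 2, and was low in both channels alike. The ratios were 0.12, 0.08 and 0.12 with CPF in Cy5 and 0.15, -0.05 and 0.12 with CPF in Cy3, so 5 of 6 arrays lay above 0. The log2 fold change was 0.09 ± 0.07 (SE, n = 6, adjusted p = 0.782), with the narrowest fold interval of the members, 0.952 to 1.19.

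prdx-3 encodes the mitochondrial enzyme, which works beside sod-2. Its levels lay between 12.79 and 13.37 with CPF and between 12.68 and 13.52 in the controls, with medians of 12.93 and 13.01. The log2 fold change was -0.03 ± 0.08 (SE, n = 6, adjusted p = 0.958), within a fold interval of 0.867 to 1.11. prdx-6 carries the name of the mammalian peroxiredoxin with a single catalytic cysteine. Its levels ran from 6.36 over 9.30 to 9.86 with CPF and from 6.52 over 9.49 to 9.88 in the controls. It was dark in both channels on CPF Cy5 replicate 3 and dim on CPF Cy3 replicate 2, and the log2 fold change was -0.04 ± 0.10 (SE, n = 6, adjusted p = 0.948).

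**Figure D3:**
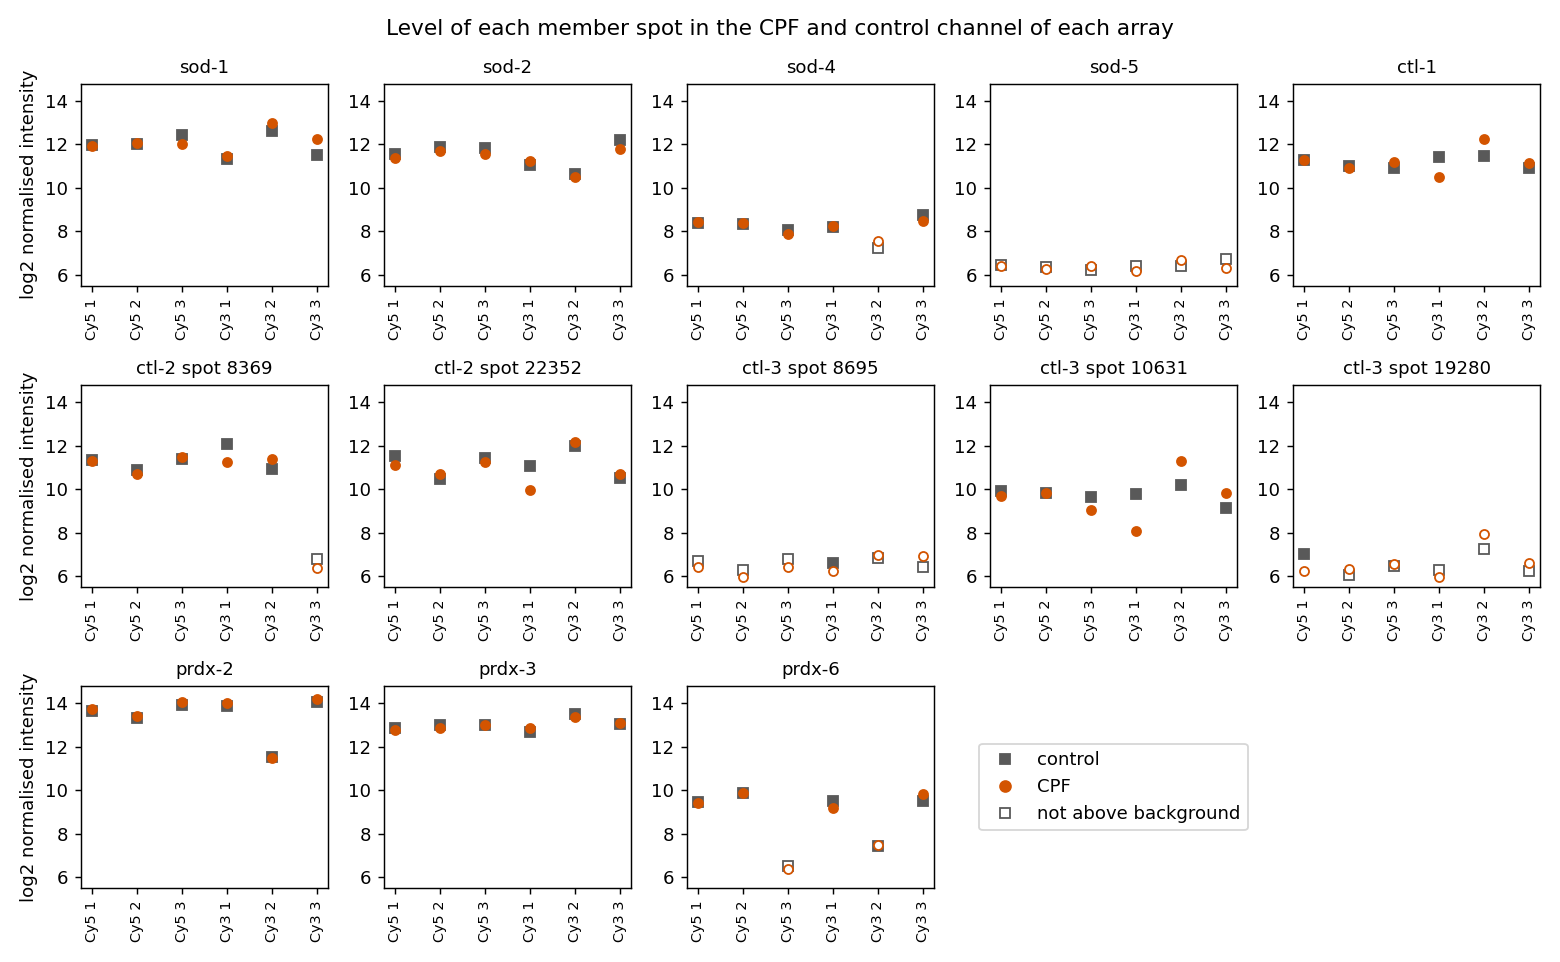
The log2 normalised intensity (vertical axis, the same in every panel) of each member spot is drawn for the control (squares) and the CPF channel (circles) of each array, named by the dye of CPF and the replicate; open symbols were not above background. Both channels are low together for prdx-2 on CPF Cy3 replicate 2, where it is still above background, for prdx-6 on CPF Cy5 replicate 3 and for spot 8369 of ctl-2 on CPF Cy3 replicate 3.

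The families differed in how far the arrays spread. The SD of the log2 ratio over the 6 arrays was 0.07 for prdx-2, 0.13 for prdx-3 and 0.22 for prdx-6. It lay between 0.19 and 0.38 for the sod spots and between 0.44 and 0.99 for the 4 catalase spots above background. Thus prdx-6 overlapped the sod spots, while sod-1 lay below these catalase spots. The dim spots 8695 and 19280 of ctl-3 had an SD of 0.36 and 0.54. Among 7879 probes above background on all arrays of a condition the median SD was 0.30, and 0.292% had a smaller SD than prdx-2, while 98.3% had a smaller SD than spot 10631 of ctl-3. For ctl-1 that share was 86.8%, and for spot 22352 of ctl-2 it was 83.9%. The SE of the log2 fold change was 0.07 for prdx-2 and between 0.16 and 0.33 for the 4 catalase spots above background. Because limma draws the variance of each probe toward a value shared by all probes, the SE of prdx-2 does not reflect its own spread alone.

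**Figure D4:**
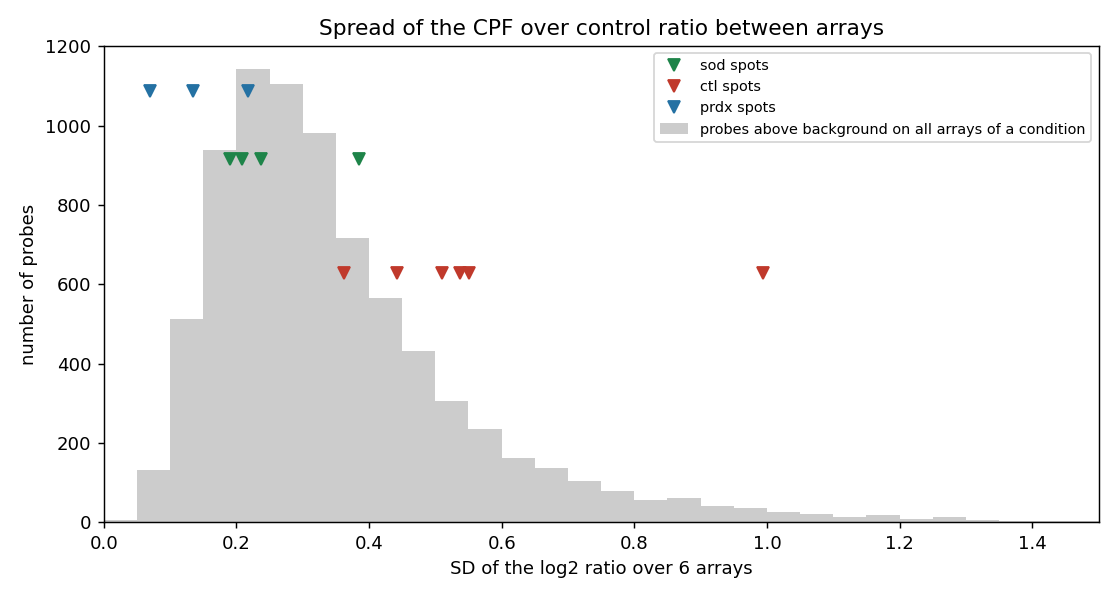
The grey histogram gives the number of probes (vertical axis) by the SD of their log2 ratio over the 6 arrays (horizontal axis, which leaves out 19 probes beyond 1.5), for the 7879 probes above background on all arrays of a condition. Triangles, at heights with no meaning, mark the member spots: prdx lie on the left from 0.07, sod from 0.19 and ctl on the right up to 0.99.

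The genes whose ratios lay closest to those of a member were taken among 4008 named genes outside the members. These were above background on all arrays, and closeness was the root mean square difference of the log2 ratio over the 6 arrays. Picked as the closest, the genes below lie under the median by choice, and a link to the members was not tested. For prdx-2 they were usp28 (0.0447), ctsa-4.1 (0.0546) and tofu-5 (0.0561), where the median gene lay at 0.312. For sod-1 they were clec-56 (0.135), nifk-1 (0.142) and dpf-1 (0.153), with a median of 0.484 over all genes compared. For ctl-2 they were mrpl-37 (0.183), mfsd-13.1 (0.183) and scl-5 (0.187), with a median of 0.572.

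The pathways that feed these enzymes or share their work held no call in limma either. Of the measured genes in 7 lists 0 passed the adjusted p, against 0.934% of all probes, and 9 had an unadjusted p below 0.05 (7.56%, against 9.66%). The rank product called 1 of them, cyc-2.2, against 2.58% of all probes. The median log2 fold change was -0.01 for 9 genes of the thioredoxin system, -0.05 for 15 genes of glutathione peroxidases, glutathione synthesis and glutaredoxins and -0.06 for 23 peroxisomal genes. It was -0.03 for 29 genes of mitochondrial electron transport, 0.09 for 9 genes of iron and haem storage and transport, 0.11 for 7 genes of methionine repair and other peroxide or superoxide handling, and 0.05 for 27 regulators of the oxidative stress response.

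The next genes are from the lists of thioredoxin, of glutathione, and of methionine repair and other peroxide or superoxide handling. The thioredoxin trx-3 had a log2 fold change of -0.31 ± 0.10 (SE, adjusted p = 0.334), trx-4 of -0.23 and the mitochondrial thioredoxin reductase trxr-2 of -0.09. The glutathione peroxidase gpx-1 stood at -0.31, the glutathione synthetase gss-1 at -0.24 and the glutaredoxin glrx-21 at -0.23, the last below 0 on 6 of 6 arrays. The peroxidase skpo-2 stood at 0.32, above 0 on 6 of 6 arrays (adjusted p = 0.432), the dual oxidase bli-3 at 0.11, and the methionine sulfoxide reductase msra-1 at -0.29 with single ratios from -2.42 to 0.35.

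Among the iron genes the divalent metal transporter smf-1 had 0.32 ± 0.09 (SE, adjusted p = 0.199), the ferritin ftn-2 -0.22 and the haem transporter hrg-1 0.20. In the peroxisome, where ctl-2 works, the largest values belonged to acyl-CoA oxidases, which make hydrogen peroxide as they shorten fatty acids. They were -0.56 for acox-1.3, -0.44 for acox-1.2 (adjusted p = 0.265, below 0 on 6 of 6 arrays) and -0.35 for acox-1.4, and as close copies these genes may share signal. In electron transport cyc-2.2, which encodes a cytochrome c, had -1.24 ± 0.23 (SE, adjusted p = 0.0611) and was below 0 on 6 of 6 arrays, while cox-5B had -0.22 and sdhd-1 0.18. Of the regulators ftt-2 had 0.18, sgk-1 -0.16 and mek-1 0.15. None of these genes passed the adjusted p in limma.

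**Figure D5:**
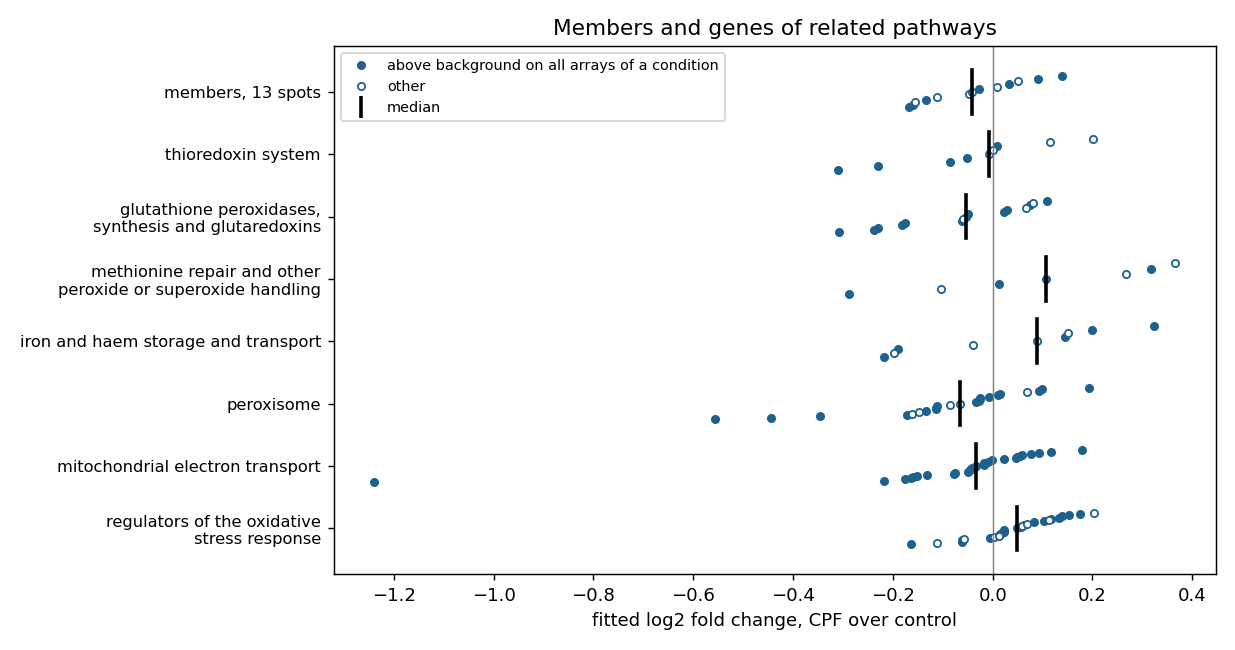
Each point is the fitted log2 fold change of CPF over control (horizontal axis) of a member spot or of a gene in 1 of 7 related lists, filled where the probe was above background on all arrays of a condition, and black lines are medians. The medians lie between -0.06 and 0.11, and cyc-2.2 at -1.24 is the point farthest from 0.

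Among the marker lists, those of yolk and sperm held several genes that changed, and that of epidermis held 1. Yolk proteins are made by adult hermaphrodites and major sperm proteins from the last larval stage on, and 5 of 6 yolk genes were above background in all control samples. Of 6 yolk protein genes 4 fell (vit-1, vit-2, vit-4 and vit-6), with a median log2 fold change of -1.84 over all 6. Of 15 measured major sperm protein genes 5 fell, with a median of -1.65, and as near-identical copies these may share signal. Over all probes 0.934% were called in either direction, a share that moved much with the processing. The adult cuticle collagen col-19, the only one called of 7 epidermal genes, fell by 1.58 on the log2 scale (adjusted p = 0.0217). It was above background in 1 of 6 CPF samples, so that the size of its fall is uncertain. Over the 7 epidermal genes the median log2 fold change was 0.06, with 4 positive and 3 negative. The summed normalised intensity of the yolk genes ran from 728 to 7046 with CPF and from 6571 to 12144 in the controls, and all 6 were above background in some channel. That of the sperm genes ran from 25804 to 85915 and from 94726 to 212391, with 2 of 15 above background nowhere. Yolk was lowest on CPF Cy5 replicate 1, at a median of -4.06, and stood at -1.98 on CPF Cy3 replicate 1, where the catalases were lowest. Whether the shift of these markers had a part in the ratios of the enzymes was not tested.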

How the data were processed

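Worms treated with CPF and control worms were compared on 6 long-oligonucleotide arrays with 2 colours. Per the file headers, the deposited files held intensity on a linear scale (mean and median of a spot and of its surroundings, in both channels) with no normalization, and the percent of saturated pixels per spot was deposited beside them. The authors also deposited a table of log2 ratios, made with loess and Aquantile in limma; set against the scanner values it held CPF over control without background correction, and it served as an alternative. Scale, centring and direction of that table were thereby known, with column medians of -0.00107, -0.000791, -0.000933, -0.00213, 0.0021 and 0.00608.

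Of 23232 spots 742 were control or empty and were left out. A gene table of the assembly WBcel235 named 21382 probes by locus tag and 31 by gene number, whereas 1077 stayed under their original name. The sources used here name no genome build for the probes, and the table was used for names and gene order only. In the platform annotation 17447 probes had 1 gene symbol and 5043 were not listed, among them both spots of ctl-2.

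Background was corrected with normexp (offset 50), followed by loess within arrays with control spots at weight 0 and Aquantile between arrays. A treatment and a dye term were fitted per probe with limma 3.58.1 in R 4.3.3, two-sided, with Benjamini-Hochberg adjustment over all 22490 probes and calls below 0.05. The script was tested on simulated data before use. Spots with 25% or more saturated pixels were called saturated (up to 144 probes in a channel), and the share of probes above background ranged from 34.98% to 61.56% over the 12 channels. Precision is limited by the small number of arrays and by dim signals. The limma p-values rest on the spread between these arrays, with the variance of each probe drawn toward a value shared by all probes. Figures were drawn with matplotlib 3.10.9 from tables handled with pandas 2.3.3.

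The members and the pathway and marker lists were chosen with earlier results of these data known. All member spots are named. Of each pathway list every called gene was to be named, and up to 3 genes with the largest change among those above background on all arrays of a condition. A list gene was represented by its brightest probe. Alternatives covered background correction, normalization, filters, the dye term, the rank product with a gamma approximation, each array left out, a replicate block and the scan day. Leaving out spots dark in both channels and the test of the difference between scan days were chosen after seeing the data.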

Additional observations from a re-analysis of the deposited data

Results flagged for a closer look

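Of 39 sets of 6 values tested (the ratio, the CPF level and the control level of each member spot), 6 held an array far from the others by Dixon's test, which flags about 1 in 20 by chance. On CPF Cy3 replicate 2 prdx-2 had a ratio of -0.0454 where the others lay between 0.08 and 0.15. On the same array its level was 11.47 with CPF and 11.51 in the control, against at least 13.41 and 13.33 on the other arrays. Spot 8369 of ctl-2 lay at 6.37 with CPF and 6.79 in the control on CPF Cy3 replicate 3, against at least 10.68 and 10.87 elsewhere, while spot 22352 of the same gene was above background on that array. Spot 19280 of ctl-3 reached 7.94 in the CPF channel of CPF Cy3 replicate 2, against at most 6.58 on the others, and was not above background there.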

How the results depend on the processing

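No member spot was called under 20 of the 21 alternatives, of which the filter on dim probes tested 7 spots and 1 probe per gene and the removal of dark spots 10 each. The exception was the first scan day alone, with 1. The median of the members stayed within the spread between arrays throughout, from -0.19 on the first scan day to 0.05 on the second. Of 248 single values of the member spots 212 kept their sign, 1 was called (spot 10631 of ctl-3 on the first scan day) and 11 had an unadjusted p below 0.05. Values of sod-1, sod-2 and prdx-2 kept their sign under all 20 alternatives fitted. The number of all probes called was far less stable than the members' count. Against 210 it was 16 without background correction, 16 from the authors' log2 ratios, 3 with plain background subtraction, 122 from median foreground, 360 with median centring, 135 with the scan day as a block, 1200 and 136 within the first and the second scan day, 343 without spots dark in both channels, and 581 by the rank product. The causes were not tested. Leaving out 1 array at a time gave 6 (without CPF Cy5 replicate 2) to 335 (without CPF Cy3 replicate 1), and 0 of 13 members each time. The deviations of arrays with the same replicate number were weakly correlated at most, at 0.0991, 0.0805 and -0.0362. Pairs of opposite dye order with different numbers ran from -0.126 to 0.0594. With a replicate block 0 of 13 members and 312 of all probes were called, and the median of the members was -0.04. Spots near background limit sod-5 and spots 8695 and 19280 of ctl-3, which gave no value without dark spots.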
